A study of Oryza sativa Indica Group with 4 samples.

Results

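Leaf transcripts of the rice mutant togr1-1 were compared with those of its wild type after growth at 30 °C. The comparison rests on 2 of the 4 libraries of the series, 1 from each genotype, and covers every transcript model with at least 1 read in either of them, which was 32450 of the 35204 models in the deposited tables, from 26435 loci. Models were joined by their identifiers, an identifier absent from a genotype's table counted as 0 reads there, and reads were scaled by the total of each library. The question is which transcripts differ between the genotypes at a warm growth temperature, and the libraries of the same genotypes at 25 °C, which share no library with the 30 °C pair, stand beside them.

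Wild-type plants were Zhongxian 3037, a variety of Oryza sativa L. ssp. indica, and togr1-1, spelled tog1 in the labels, is a recessive mutant that arose spontaneously in that variety and has a glycine-to-valine substitution in TOGR1. Seedlings of both genotypes, 4 days old, were moved to 25 or 30 °C for 18 days, and at an age of 22 days the blades of the fourth leaves were taken and pooled into 100 mg for each library. Messenger RNA was selected with oligo(dT), primed with random hexamers and sequenced on an Illumina HiSeq. The 4 libraries held between 11959859 and 12371522 counted reads, with 11959859 in the wild type and 12139238 in togr1-1 at 30 °C. With 1 pool of leaves per group, no difference below has a replicate check, and the tests and intervals treat reads as independent and cover counting error only. They compare the libraries, not the genotypes, and because blades were pooled, fewer cells of a type and less RNA per cell cannot be told apart. The labelled tissue was not checked against leaf markers, since the files pair no locus with a gene name. Loci are therefore given by their identifiers, and a function is stated only for the 4 loci that the study names.

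TOGR1 belongs to the DEAD-box RNA helicases, enzymes that use ATP to open short RNA duplexes and remodel complexes of RNA and protein. Several members act in the nucleolus, where ribosomal RNA precursors are folded, cleaved and assembled with proteins into ribosomal subunits. In plants, loss of such factors can give cold-sensitive or heat-sensitive growth.

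The transcript of TOGR1 (LOC_Os03g46610, chromosome 3) was read in both genotypes, with less than a 2-fold difference at each temperature. Summed over its 2 models, it had 180 reads in the wild type and 156 in togr1-1 at 30 °C, and 175 and 127 at 25 °C. All 4 libraries lay within a narrow range, with togr1-1 below the wild type at both temperatures. At 30 °C the log2 ratio of togr1-1 over the wild type was -0.23 (95% Clopper-Pearson interval -0.55 to 0.09), and at 25 °C it was -0.48 (-0.82 to -0.14). The allele is a substitution and the tables hold reads per model without their sequence, so they give no check of which allele a library carried.

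The other loci with a stated function differed less than 2-fold between the genotypes at 30 °C. Galactinol synthase makes galactinol, the galactosyl donor for raffinose, a sugar that accumulates in plants under heat and drought, and the files hold both of its GolS2 homologues. LOC_Os03g20120 had 152 reads in the wild type and 279 in togr1-1 at 30 °C, and 380 and 615 at 25 °C. It was the higher in togr1-1 at each temperature, with log2 ratios of 0.85 (0.56 to 1.15) at 30 °C and 0.68 (0.49 to 0.86) at 25 °C. LOC_Os07g48830 went the other way at 30 °C, with 174 reads in the wild type against 95 in togr1-1 (log2 ratio -0.89, -1.27 to -0.53), whereas its log2 ratio at 25 °C was 0.10 (-0.30 to 0.51). Its main model LOC_Os07g48830.1 had 130 reads in the wild type and 70 in togr1-1 at 30 °C, and 74 and 99 at 25 °C. The wild type at 30 °C was the high library. For this model the genotype ratios at 30 and 25 °C themselves differed by -1.30 on the log2 scale, past the thresholds of the test of that difference described below. The other model, LOC_Os07g48830.2, had 44 and 25 reads at 30 °C and 27 and 11 at 25 °C. Its genotype ratios differed by 0.43 and did not pass, and the reads summed over the locus were not put to that test.

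The homologue of ascorbate peroxidase 2 (LOC_Os07g49400), an enzyme that removes hydrogen peroxide with ascorbate, had 199 reads in the wild type and 164 in togr1-1 at 30 °C over 3 models. At 25 °C it had 255 and 336. The log2 ratio was -0.30 at 30 °C (-0.61 to 0.005), an interval that includes no difference, and 0.38 at 25 °C (0.14 to 0.62). Its models were not alike at 30 °C. The main model LOC_Os07g49400.3 had 195 reads in the wild type and 142 in togr1-1 (-0.48, -0.80 to -0.16). LOC_Os07g49400.2 (0 and 6 reads) and LOC_Os07g49400.4 (4 and 16) were the higher in togr1-1. No model of these 4 loci passed the rule for a difference at 30 °C.

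The rule was the same for every model. A two-sided exact binomial test compared the reads of the pair given their sum, with the shares expected from the library totals, and p-values were adjusted by the Benjamini-Hochberg method over the 32450 models. Calls needed an adjusted p-value no greater than 0.001 and scaled reads at least 2-fold apart. At 30 °C 1810 models of 1763 loci were called (5.58% of those tested). More were higher in togr1-1, 1110 models (3.42%), than were lower, 700 models (2.16%), so that 61.3% of the calls were higher. At 25 °C 1338 of 32519 models were called (4.11%), and there the lower calls were the larger group, 852 (2.62%) against 486 (1.49%). The majority at 30 °C was of the same direction under each scaling tried, with 1250 higher against 557 lower when TMM factors replaced the totals. Other scalings were not tried on the 25 °C pair, so the majority of lower calls there was not checked in this way. The number of calls rests on counting error alone. Where edgeR's exact test was given an assumed biological coefficient of variation of 0.2, 401 models passed, and with 0.4 the number was 27.

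Differences were larger on the higher side. Log2 ratios, taken with a pseudocount of 1 read, had a median of 1.98 among the 1110 higher models (quartiles 1.39 and 3.08) and of -1.57 among the 700 lower models (-2.34 and -1.21). With a count of 0 read as 3, these medians were 2.03 and -1.61. Over all 20974 models with at least 20 reads in the pair the median was -0.09. At least a 4-fold difference on the pseudocount scale was reached by 548 higher and 227 lower models, 8-fold by 291 and 108, and 16-fold by 164 and 50. Of the higher models, 131 were unread in the wild type at 30 °C, with a median of 22 reads in togr1-1, and 59 of these also had 0 in the wild type at 25 °C. Of the lower models, 44 were unread in togr1-1 at 30 °C, with a median of 18 in the wild type, and 18 were also at 0 in togr1-1 at 25 °C.

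**Figure D1:**
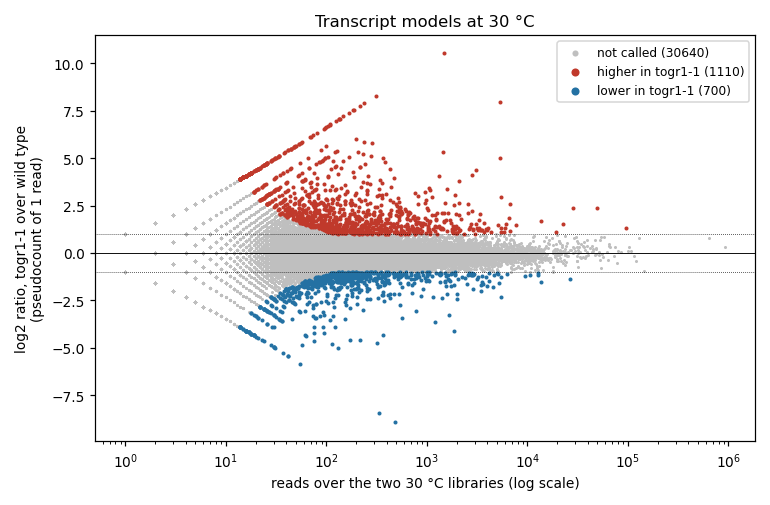
Log2 ratio of togr1-1 over the wild type at 30 °C (vertical axis, pseudocount of 1 read) against the reads of the model over both 30 °C libraries (horizontal axis, log scale), 1 point for each of 32450 transcript models. Red points are the 1110 called higher and blue points the 700 called lower, dotted lines mark a 2-fold difference, and the points on the outer diagonals are models with 0 reads in one library.

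Calls were found at all levels from 14 reads in the pair upward, and none below that. The fewest reads in a called pair were 14, and the calls had a median of 125.5 reads on the higher side and 134.5 on the lower side. The share called was 7.09% among the 5501 models with 14 or more but fewer than 50 reads and 12.6% among the 6059 with fewer than 200. It was 7.50% of 6282 models with 200 or more but fewer than 1000 reads, 4.04% of 4382 with fewer than 10000 and 3.85% of 286 with 10000 or more. In each of these classes the higher calls outnumbered the lower ones. The models called had a median length of 1635.5 bases on the higher side and 1651 on the lower side. Over all models with at least 20 reads, called or not, the median was 1784.

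The levels of the called models are given here in all 4 libraries. The models were chosen for a difference between the 30 °C libraries, so a gap between those 2 was built in. The 1110 higher models had a median RPKM (reads scaled to the length of the model and to the library, as deposited) of 5.42 in togr1-1 and 1.28 in the wild type at 30 °C. At 25 °C their medians were 3.04 in togr1-1 and 2.71 in the wild type, so that togr1-1 at 30 °C lay above both and the wild type at 30 °C below both. Together these models took 4.31% of the reads of togr1-1 and 1.32% of those of the wild type at 30 °C, against 3.63% and 3.54% at 25 °C. By these shares, which lean on the most read models, the low value was that of the wild type at 30 °C and the other 3 were close. For the 700 lower models the wild type at 30 °C was again the library apart, with a median RPKM of 5.34 against 1.74 in togr1-1 at 30 °C, and against 1.92 in togr1-1 and 2.60 in the wild type at 25 °C. They took 2.23% of its reads, and 0.829%, 0.826% and 1.01% of the reads of those 3 libraries in the same order.

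Model by model the picture was more even on the higher side. The wild type at 30 °C lay farther than togr1-1 at 30 °C from the mean of the 25 °C libraries for 586 of the 1110 higher models and for 462 of the 700 lower ones. Over the 16983 models with at least 100 reads in the 4 libraries together, the median absolute log2 difference between the 30 °C libraries was 0.31, the same as between the 25 °C libraries. It was 0.40 between the wild-type libraries and 0.38 between the togr1-1 libraries. By the SD of the log2 difference the order was another, with 0.77 between the 30 °C libraries, 0.70 between the 25 °C libraries, 0.85 between the wild-type libraries and 0.75 between the togr1-1 libraries.

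The models with the highest and lowest log2 ratios at 30 °C, with a pseudocount of 1 read and among calls with at least 200 reads in the pair, each had 0 reads in one genotype at 30 °C. This order depends on how a count of 0 is read, since with a pseudocount of 5 reads LOC_Os01g45914.1, read in both genotypes and described below, had a log2 ratio of 7.71 against 5.97 for LOC_Os11g42200.1. LOC_Os04g30240.1 (chromosome 4) had 0 reads in the wild type and 1484 in togr1-1 at 30 °C, and 3 and 472 at 25 °C. With 0 read as 3 reads in that library it was 487-fold higher in togr1-1 at 30 °C, a log2 ratio of 8.93. The Clopper-Pearson interval of the log2 ratio began lower, at 8.63. LOC_Os11g42200.1 (chromosome 11) had 0 and 313 reads at 30 °C and 13 and 249 at 25 °C. By the same reading of 0 it was 103-fold higher in togr1-1 at 30 °C, and the interval of its log2 ratio began at 6.38. Its log2 ratio at 25 °C was 4.14 (3.44 to 5.17), and the genotype ratios of the 2 temperatures differed past the thresholds. Both models were high in both togr1-1 libraries and at or near 0 in both wild-type libraries.

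On the lower side, 2 further models of chromosome 4 were read in the wild type alone. LOC_Os04g30160.1 had 479 reads in the wild type and 0 in togr1-1 at 30 °C, and 550 and 0 at 25 °C. It was at least 162-fold lower in togr1-1 at 30 °C and at least 186-fold lower at 25 °C. LOC_Os04g23040.1 had 336 and 0 reads at 30 °C and 256 and 0 at 25 °C, by that reading 114-fold and 86.4-fold lower. The intervals of its log2 ratios ended at -6.52 and -6.12. Neither had a read in either togr1-1 library.

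Other models that stood out were chosen after their values were seen, and they differed in which libraries were high. LOC_Os01g45914.1 (chromosome 1) had 20 reads in the wild type and 5291 in togr1-1 at 30 °C, and 33 and 10 at 25 °C. One library was high and the rest were low, and the log2 ratio was 7.96 at 30 °C (7.40 to 8.74) and -1.65 at 25 °C (-2.93 to -0.69). LOC_Os03g30740.1 (chromosome 3) was instead high in both togr1-1 libraries, with 5179 reads against 157 at 30 °C and 4361 against 170 at 25 °C. Its log2 ratios were 5.01 (4.79 to 5.26) and 4.65 (4.44 to 4.89). LOC_Os03g56930.1 was low in the wild type at 30 °C, with 155 reads there against 2688 in togr1-1, and 3690 and 1744 reads at 25 °C.

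Among the 286 models with at least 10000 reads in the pair, 11 were called, 6 of them higher and 5 lower in togr1-1. None of these was called at 25 °C. LOC_Os12g17600.1 (chromosome 12) was the most abundant, with a deposited RPKM of 1967 in the wild type and 4955 in togr1-1 at 30 °C and of 6969 and 5356 at 25 °C. The wild type at 30 °C had the lowest level of the 4 libraries, and the log2 ratio of reads was 1.33 (1.31 to 1.35) at 30 °C and -0.38 at 25 °C. LOC_Os04g52260.1 had an RPKM of 658 in the wild type and 3381 in togr1-1 at 30 °C, and 2533 and 4049 at 25 °C, a log2 ratio of 2.36 (2.33 to 2.40) at 30 °C. LOC_Os01g41710.1 had 305 and 1595 at 30 °C and 1564 and 1166 at 25 °C, a log2 ratio of 2.38 (2.34 to 2.43).

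The abundant models that were lower in togr1-1 included LOC_Os02g57260.1 (chromosome 2), with an RPKM of 785 in the wild type and 304 in togr1-1 at 30 °C and of 232 and 237 at 25 °C. Here the wild type at 30 °C was the high library and the other 3 were alike, and the log2 ratio was -1.37 (-1.41 to -1.33) at 30 °C and 0.03 at 25 °C. LOC_Os12g01530.2 had 495 and 170 at 30 °C and 248 and 408 at 25 °C, a log2 ratio of -1.54 (-1.60 to -1.49) at 30 °C and of 0.72 at 25 °C. For 10 of the 11 models the genotype ratio at 30 °C differed from that at 25 °C past the thresholds. The exception was LOC_Os01g09640.1, which was lower in togr1-1 at both temperatures, with 7231 and 3324 reads at 30 °C and 2054 and 1369 at 25 °C.

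**Figure D2:**
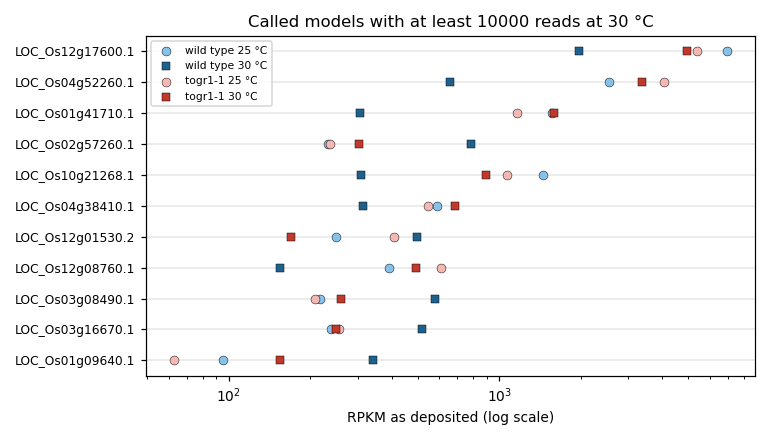
Deposited RPKM (horizontal axis, log scale) of the 11 called models with at least 10000 reads over the 30 °C libraries, in each of the 4 libraries (circles 25 °C, squares 30 °C, blue wild type, red togr1-1). The wild type at 30 °C (dark blue squares) has the lowest value of all 6 models higher in togr1-1 and the highest value of all 5 lower models.

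Whether the genotype ratio at 30 °C differed from that at 25 °C was tested directly. Fisher's exact test was run on the reads of the 4 libraries for each model, under the same limit on the adjusted p-value and with genotype ratios at least 2-fold apart. It was passed by 1622 of 35204 models (4.61%). Of the 1810 models called at 30 °C, 709 passed it (39.2%) and 1101 did not. Calls chosen for a large ratio at 30 °C favour such a difference. A model with 0 reads in both libraries of one genotype, or of one temperature, cannot pass this test whatever its other reads. The test also has little power near 0 reads, so a model that missed it was not shown to have the same ratio at both temperatures.

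The called models were split in their behaviour at 25 °C. Of the 1810, 1473 were called at 30 °C alone, and in 592 of these the difference between the temperatures was itself past the thresholds. The remaining 337 were called at both temperatures, 238 of them in the same direction, with 147 higher and 91 lower in togr1-1. Without regard to calls, 639 of the 1110 higher models and 464 of the 700 lower models had a log2 ratio, with the pseudocount, of the same sign at 25 °C. On that scale a model with 0 reads in both 25 °C libraries has a value of -0.018 and was counted as negative. The median log2 ratio of the higher models was 0.20 at 25 °C, and that of the lower models was -0.28, both much nearer to 0 than at 30 °C. The models were chosen for ratios of at least 2-fold at 30 °C and not at 25 °C, and that choice alone favours medians nearer to 0 at 25 °C.

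**Figure D3:**
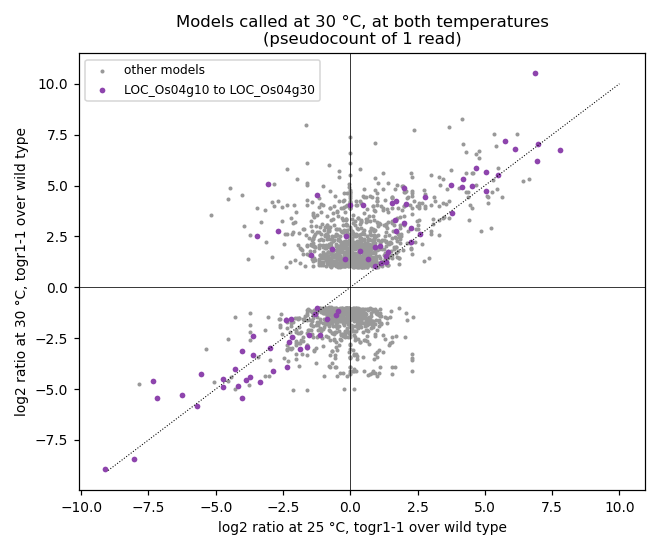
Log2 ratio of togr1-1 over the wild type at 30 °C (vertical axis) against that at 25 °C (horizontal axis) for the 1810 models called at 30 °C, with a pseudocount of 1 read and equal ratios on the dotted line. Most grey points gather around 0 on the horizontal axis, while many of the purple points, the called models of LOC_Os04g10 to LOC_Os04g30 on chromosome 4, follow the dotted line. The models were chosen by their ratio at 30 °C, which favours points near 0 on the horizontal axis.

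A further 99 models were called in opposite directions at the 2 temperatures. All 99 passed the test of the difference, which calls at least 2-fold apart in opposite directions all but fix. In 83 of them togr1-1 was higher at 30 °C and lower at 25 °C, and in 16 it was the reverse. Of the 83, the lowest scaled reads were those of the wild type at 30 °C in 55 and of togr1-1 at 25 °C in 28, and the highest were those of togr1-1 at 30 °C in 42 and of the wild type at 25 °C in 41. LOC_Os02g36110.1 (chromosome 2) had 1 read in the wild type and 40 in togr1-1 at 30 °C, and 159 and 6 at 25 °C. Its order reversed between the temperatures, with log2 ratios of 4.34 (2.74 to 10.6) at 30 °C and -4.53 (-6.21 to -3.59) at 25 °C. LOC_Os09g23300.1 (chromosome 9) was a model of the reverse kind, with 3080 and 1121 reads at 30 °C and 1862 and 4581 at 25 °C. Its log2 ratios were -1.48 (-1.58 to -1.38) and 1.28 (1.20 to 1.36), and at each temperature the high library had more than 2-fold the scaled reads of the low one. Both were chosen after their values were seen.

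The identifiers of rice loci give the chromosome and a number that runs along it, so calls could be placed in order without coordinates. In the 20974 models with at least 20 reads over the 30 °C pair, 1720 were called (8.2%), 1052 of them higher (5.02%). By chromosome the share ran from 6.40% on chromosome 8 to 11.6% on chromosome 4, with chromosome 11 next at 10.01%. When loci were grouped by 1000 locus numbers, 567 groups held at least 10 models, and the share called had a median of 7.5% and ranged from 0% in 68 groups to 62.5%. It was above 30% in 8 groups, and 5 of these were on chromosome 4. At 25 °C 1288 of 20754 models were called (6.21%), 465 of them higher (2.24%).

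**Figure D4:**
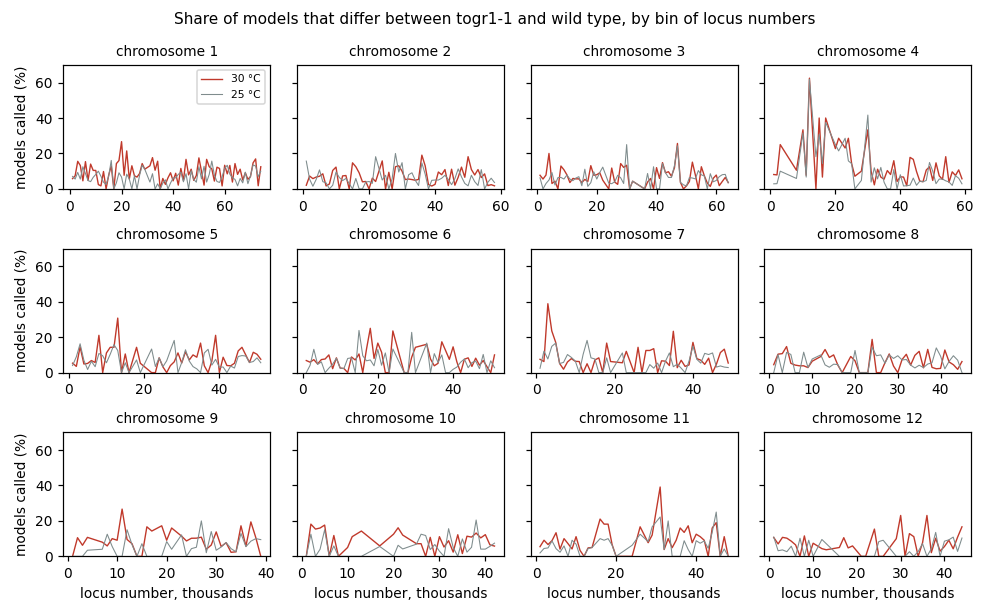
Share of models with at least 20 reads that were called between togr1-1 and the wild type (vertical axis, %) along the locus numbers of each of the 12 chromosomes (horizontal axis), in groups of 1000 locus numbers with at least 10 models, at 30 °C (red) and 25 °C (grey). The highest values, up to 62.5% at 30 °C, lie between LOC_Os04g10 and LOC_Os04g30 on chromosome 4. Most of the peaks there are also high at 25 °C, though the lines part in places, as at LOC_Os04g14 with 0% at 30 °C and 18.2% at 25 °C. LOC_Os07g03 on chromosome 7 has 38.9% at 30 °C and 7.69% at 25 °C.

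On chromosome 4 the loci from LOC_Os04g10 to LOC_Os04g30 held a dense but uneven set of calls. The share at 30 °C ran from 0% in LOC_Os04g14 and 6.67% in LOC_Os04g16 to 62.5% in LOC_Os04g12. Of 285 models there, 73 were called at 30 °C (25.6%), 42 higher and 31 lower in togr1-1. The rest of chromosome 4 had 137 of 1521 (9.01%) and the other chromosomes together had 1510 of 19168 (7.88%). The same stretch held 67 calls among 281 models at 25 °C (23.8%), against 4.99% on the rest of the chromosome and 6.04% on the others. Of its 73 calls, 48 were called in the same direction at 25 °C (65.8%) and 3 in the opposite direction, while on the other chromosomes 175 of 1510 calls (11.6%) had the same call. The difference between the temperatures was past the thresholds for 12 of the 73 (16.4%) and for 627 of the 1510 (41.5%). Both sets include models with 0 reads in both libraries of one genotype, which could not pass that test. The limits of the stretch were set after the calls had been seen, so these shares are descriptions. With edgeR's exact test at an assumed coefficient of variation of 0.2, 44 models of the stretch passed, and at 0.4 it was 8 of the 27 models that passed in all.

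The group LOC_Os04g12 was the densest, with 15 of 24 models called, 12 higher and 3 lower in togr1-1. At 25 °C 13 of 21 were called, 13 of the 15 had the same call, and in 0 of the 15 was the difference between the temperatures past the thresholds. Of the higher models, 6 had no read in either wild-type library and so could not pass that test. LOC_Os04g12840.1 had 134 togr1-1 reads at 30 °C and 125 at 25 °C, LOC_Os04g12060.1 had 108 and 225, and LOC_Os04g12830.1 had 110 and 70. These 3 models, with 0 reads in the wild type at both temperatures, contrast with neighbours read in both genotypes. LOC_Os04g12390.1 had 254 reads in the wild type and 612 in togr1-1 at 30 °C, and 181 and 456 at 25 °C. LOC_Os04g12820.1 had 10 and 360 at 30 °C and 17 and 240 at 25 °C.

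Models lower in togr1-1 lay between them. LOC_Os04g12140.1 had 228 reads in the wild type and 42 in togr1-1 at 30 °C, and 164 and 36 at 25 °C, and was low in both togr1-1 libraries. LOC_Os04g12690.1 had 56 and 1 at 30 °C and 17 and 0 at 25 °C. Over the 12 higher models of the group, the median log2 ratio was 4.24 at 30 °C and 3.14 at 25 °C with a count of 0 read as 3. The 12 were chosen by their calls at 30 °C, which favours a larger median there. Over all 24 models of the group the median at 30 °C was 1.05 with the pseudocount.

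The group LOC_Os04g30 holds the model with the highest ratio and the model with the lowest ratio named above, and 7 of its 21 models were called, 5 higher and 2 lower. At 25 °C 10 of 24 were called, and 6 of the 7 had the same call. Close to LOC_Os04g30240.1 lay LOC_Os04g30250.1, with 0 reads in the wild type at both temperatures and 50 togr1-1 reads at 30 °C and 32 at 25 °C. LOC_Os04g30310.1 had likewise 0 in the wild type and 58 and 25 in togr1-1. LOC_Os04g30260.1 went the other way, with 167 reads in the wild type and 6 in togr1-1 at 30 °C, and 159 and 0 at 25 °C. Models of opposite direction were thus found within a few loci of each other.

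The group LOC_Os04g10, at the start of the stretch, differed from these. It held 6 calls among 18 models, and 3 of the 6 were called in the opposite direction at 25 °C. LOC_Os04g10160.1 had 8 reads in the wild type and 52 in togr1-1 at 30 °C, and 308 and 27 at 25 °C. LOC_Os04g10000.1 had 2 and 20 at 30 °C and 95 and 14 at 25 °C, and LOC_Os04g10060.1 had 0 and 33 at 30 °C and 73 and 8 at 25 °C. In all 3 models the wild type was the highest library at 25 °C and the lowest at 30 °C, and the difference between the temperatures was past the thresholds.

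**Figure D5:**
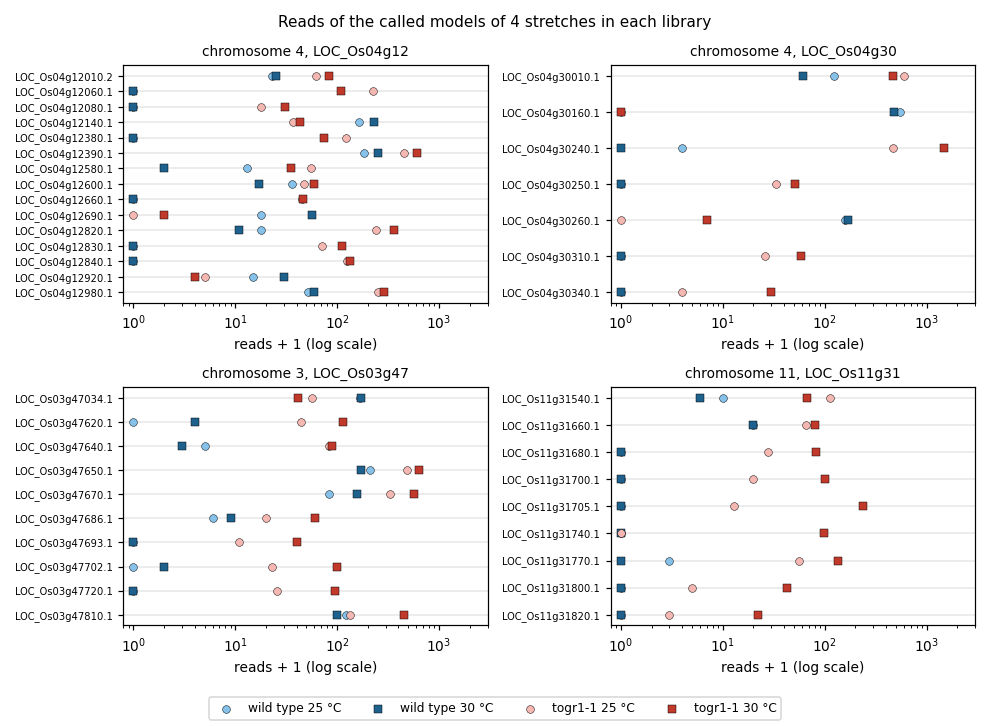
Reads plus 1 (horizontal axis, log scale) in each library of the called models with at least 20 reads over the 30 °C pair, for the groups LOC_Os04g12, LOC_Os04g30, LOC_Os03g47 and LOC_Os11g31 (circles 25 °C, squares 30 °C, blue wild type, red togr1-1). Points at 1 are models with 0 reads, and for most models both togr1-1 libraries lie on the same side of both wild-type libraries, with LOC_Os11g31740.1 read at 30 °C in togr1-1 alone.

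The loci around TOGR1 itself, in the group LOC_Os03g46, had 5 of 42 models called (11.9%), 3 higher and 2 lower. The next group, LOC_Os03g47, had 10 of 39 (25.6%), 9 higher and 1 lower, and 9 of 37 at 25 °C. Within it the models with at least 20 reads from LOC_Os03g47620 to LOC_Os03g47720, a run picked out after the values were seen, were 8 and all 8 were higher in togr1-1 at 30 °C. At 25 °C 6 of these had the same call, and for none of the 8 was the difference between the temperatures past the thresholds. In this run 2 models had 0 reads in both wild-type libraries and could not pass that test.

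These models of chromosome 3 ranged from unread to well read in the wild type. LOC_Os03g47720.1 had 0 reads in the wild type at both temperatures and 94 in togr1-1 at 30 °C and 25 at 25 °C. LOC_Os03g47640.1 had 2 reads in the wild type and 88 in togr1-1 at 30 °C, and 4 and 82 at 25 °C. LOC_Os03g47650.1 was read in all libraries, with 172 and 638 at 30 °C and 209 and 484 at 25 °C, and LOC_Os03g47670.1 had 156 and 568 at 30 °C and 82 and 329 at 25 °C. In each of the 4 the togr1-1 libraries were above both wild-type libraries. The lower call of the group, LOC_Os03g47034.1, had 170 reads in the wild type and 40 in togr1-1 at 30 °C, and 168 and 56 at 25 °C.

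On chromosome 11, 9 of the 23 models of LOC_Os11g31 were called (39.1%), and all 9 were higher in togr1-1. At 25 °C 4 of the 18 models with at least 20 reads there were called. Without that limit on reads, 5 of the 9 had the same call at 25 °C. In 7 models that follow each other among those with at least 20 reads, LOC_Os11g31680 to LOC_Os11g31820, the wild type had 0 reads at 30 °C. LOC_Os11g31705.1 had 238 togr1-1 reads at 30 °C and 12 at 25 °C, LOC_Os11g31700.1 had 100 and 19, and LOC_Os11g31680.1 had 81 and 27, all with 0 in both wild-type libraries. LOC_Os11g31740.1 had 97 reads in togr1-1 at 30 °C and 0 in each of the other 3 libraries. The togr1-1 library at 30 °C was the highest throughout this run. Because the wild type had 0 reads at 30 °C, these models reached 20 reads and were called through that library alone. That choice favours its high place and a larger ratio at 30 °C. With a count of 0 read as 3, the median log2 ratio of the 7 was 4.99 at 30 °C and 1.98 at 25 °C. The difference between the temperatures was past the thresholds for none of them. That result was fixed for 6 of the 7, which had 0 reads in both wild-type libraries and could not pass the test.

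On chromosome 7, in LOC_Os07g03, 14 of 36 models were called (38.9%), 13 higher and 1 lower in togr1-1, against 3 of 39 at 25 °C (7.69%). The next groups were called at both temperatures, with 23.5% at 30 °C and 14.8% at 25 °C in LOC_Os07g04 and 17.1% and 16.7% in LOC_Os07g05. All but 1 of the 14 had a ratio of the same sign at 25 °C, 2 had the same call there, and in 6 the difference between the temperatures was past the thresholds. The wild type at 30 °C had the fewest reads of the 4 libraries in 10 of the 14. LOC_Os07g03040.3 had the highest ratio of the group, with 4 reads in the wild type and 166 in togr1-1 at 30 °C and 5 and 60 at 25 °C, and was called higher at both temperatures. LOC_Os07g03710.1 had 5 reads in the wild type and 134 in togr1-1 at 30 °C, and 76 and 127 at 25 °C. LOC_Os07g03030.1 had 207 and 518 at 30 °C and 491 and 689 at 25 °C. Both were low in the wild type at 30 °C, while LOC_Os07g03730.1 was high in togr1-1 at 30 °C, with 739 reads there against 89 in the wild type, and 53 and 136 reads in the wild type and togr1-1 at 25 °C, where it was also called higher.

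In LOC_Os02g36 on chromosome 2, 8 of 42 models were called, against 6 of 41 at 25 °C. That share at 30 °C was above the 8.2% of all models with at least 20 reads but below 30%. Denser groups, such as LOC_Os04g15, LOC_Os04g17 and LOC_Os05g13, all above 30%, are not described here. All 8 called models of LOC_Os02g36 were higher in togr1-1, and the wild type at 30 °C had the fewest reads in all 8. The difference between the temperatures was past the thresholds for 7, and 3 of the 8 were called in the opposite direction at 25 °C, LOC_Os02g36110.1 among them. LOC_Os02g36210.1 had 97 reads in the wild type and 991 in togr1-1 at 30 °C, and 737 and 448 at 25 °C. LOC_Os02g36280.1 had 0 and 56 at 30 °C and 55 and 10 at 25 °C, and LOC_Os02g36190.1 had 19 and 255 at 30 °C and 76 and 111 at 25 °C. The median log2 ratio of the 8 was 3.49 at 30 °C and -0.55 at 25 °C, or 3.41 and -0.56 with a count of 0 read as 3. The 8 were chosen by their calls at 30 °C, which favours a high median there. Over all 42 models the median at 30 °C was 0.09 with the pseudocount. The loci of these groups named beyond the paper's 4 and the 4 leading models were chosen after their values were seen.

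Of 4498 loci with several models read at 30 °C, 42 had several called models, and at 1 locus the calls went both ways. Loci with one model called and another not called were not counted. At that locus LOC_Os09g05030.1 (chromosome 9) had 9 reads in the wild type and 41 in togr1-1 at 30 °C, and 34 and 13 at 25 °C. Its other model LOC_Os09g05030.2 had 15 and 0 at 30 °C and 15 and 17 at 25 °C. These are low counts, and how reads shared by both models were divided is not given in the sources used here.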

How the data were processed

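RNA of 4 pooled leaf blade samples was sequenced, 1 library per genotype and temperature. The authors deposited raw read counts per transcript model, without normalization, and RPKM values that they calculated from them. The aligner, genome build and annotation release are not given in the sources used here. The deposited log2 ratio, p-value and FDR columns hold the authors' own comparison of temperatures and were not used. Reads of near-identical, overlapping or antisense genes could have been divided in ways the counts do not show.

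Counts were joined over both tables by model, absent models were set to 0, and libraries of 11959859 to 12371522 reads were scaled by their totals. The exact binomial and Fisher's tests, with an adjusted p of at most 0.001 and a 2-fold difference, were checked on simulated data. The simulated reads held counting error alone, and the changes put in were larger than 2-fold and in well-read models. That check therefore does not cover variation between plants or calls at low reads. Log2 ratios had a pseudocount of 1 read, intervals were 95% Clopper-Pearson intervals, and a count of 0 was read as allowing 3 reads. Reads were PCR products without molecular identifiers. Positions and medians over all models used at least 20 reads in a pair.

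The models and groups described were chosen with earlier results of these data known. The rule for named loci took the 4 loci of the paper and, as identifiers carry no descriptions, the 2 highest and 2 lowest log2 ratios among calls with at least 200 reads. Of 28458 loci, 1 matched the RefSeq gene table of the japonica assembly ASM3414082v1, so 35 planned gene lists by description, including leaf markers, could not be formed, and no sequences were used here. The alternatives were TMM and DESeq2 size factors, other thresholds, a filter on reads, reads summed per locus, edgeR's exact test with an assumed coefficient of variation, and another pseudocount. Versions were Python 3.11.15, numpy 2.4.6, scipy 1.17.1, pandas 2.3.3, matplotlib 3.10.9, R 4.3.3, edgeR 4.0.16 and DESeq2 1.42.0.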

Additional observations from a re-analysis of the deposited data

Results flagged for a closer look

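The genotype difference at 30 °C differed from that at 25 °C, as measured with Fisher's exact test over all 4 libraries, in 709 of the models called at 30 °C. In 99 models the calls went in opposite directions at the 2 temperatures. Among the loci named by rule, LOC_Os07g48830.1 had a genotype ratio at 30 °C over that at 25 °C of -1.30 on the log2 scale. It is a model of a GolS2 homologue, and the other model of that locus did not pass. For LOC_Os11g42200.1 the value was 4.13, which rests on a count of 0 in the wild type at 30 °C and a pseudocount of 1 read. The test compares libraries, and the difference was not tested across plants.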

How the results depend on the processing

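At 30 °C the calls (1810, with 1110 higher and 700 lower in togr1-1) stayed within 1.5 times of these numbers, with the higher calls in the majority, under TMM factors, DESeq2 size factors, a minimum of 10 reads and reads summed per locus. They moved further with a 4-fold difference (809, with 570 higher and 239 lower), an adjusted p of at most 0.05 (3233, with 1827 and 1406), and edgeR's exact test at an assumed coefficient of variation of 0.2 (401, with 308 and 93) or 0.4 (27, with 25 and 2). Differences between the temperatures numbered 639 in place of 1622 at 4-fold. The 73 calls from LOC_Os04g10 to LOC_Os04g30, recounted after the data were seen, were 57 to 80 under the other settings, and 44 and 8 with edgeR at 0.2 and 0.4. Of 174 recalculated log2 ratios of 58 models 0 changed sign, and 31 left their counting interval, 21 of them with a pseudocount of 5 reads. The fold of a model at or near 0 reads in one library depends on that pseudocount. For the leading models, folds with a count of 0 read as 3 reads were therefore given beside intervals. Such a fold takes the other count as fixed and is not a lower limit. No paired analysis was possible because each group had 1 library, and for the same reason no library could be left out. Alternatives for the gene lists, and for the log2 ratios of reads summed per locus, were not run.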
